A study of Homo sapiens with 6 samples.

Results

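Mitotic kinesins are motor proteins that act on the spindle or in the division of the cell, and 10 of their genes were taken by name from the deposited gene table, namely KIF2C, KIF4A, KIF11, KIF14, KIF15, KIF18A, KIF18B, KIF20A, KIF20B and KIF23. All 10 were found among the 50868 genes of the table, and all 10 were among the 12015 genes tested, those whose FPKM averaged 1 or more across the samples. FPKM is the number of reads on a gene scaled to the length of the gene and to the total of the library. The cells were HCT116, an established human colon cancer cell line, and polyA RNA was sequenced. The 3 pcYY2 samples came from cells given a vector that overexpresses YY2, a zinc finger transcription factor related to YY1, and the 3 pcCon samples came from cells given the control plasmid. The comparison asks how the expression of the motor genes differed when YY2 was in excess. It rests on 1 cell line with its own YY2 gene present, and nothing in the labels says whether the 3 samples of a group came from separate cultures, so p-values measure the spread between these samples, which may be technical.

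Kinesins use ATP to walk along microtubules or to take their ends apart. Those of mitosis push the spindle poles apart, trim microtubule ends and align chromosomes, and later hold the bundle of microtubules between the daughter cells. Their genes are known to be transcribed late in the cell cycle. Promoter elements such as the cell cycle homology region (CHR) and the CCAAT box are used in this control by repressor and activator complexes.

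In the pcYY2 samples, 7 of the 10 kinesins rose, by 1.18-fold for KIF4A to 1.40-fold for KIF18B, beside 4.52% of all genes tested. No member fell, beside 4.85%. The other three, KIF18A, KIF20B and KIF23, had positive log2 fold changes of 0.15, 0.11 and 0.31 that did not pass the test. When any 1 pcCon sample was left out, only 1 or 2 of the 10 rose. YY2 itself, the check of the labels, had 2.22, 2.52 and 1.73 FPKM in pcCon samples 1 to 3 and 11.6, 11.1 and 11.0 FPKM in pcYY2 samples 1 to 3 (log2 fold change 2.39, SE 0.137, adjusted p = 0.00107). The vector's transcript and that of the cell's own gene cannot be told apart in these counts.

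The libraries held between 15158360 and 29572882 counted reads, and pcYY2 sample 2 was the deepest. The 10 kinesins together took 1297, 1261 and 1286 CPM (reads scaled to the library total) in pcCon samples 1 to 3 and 1679, 1531 and 1552 CPM in pcYY2 samples 1 to 3. Of 8 colon epithelial markers 6 were tested, with summed levels of all 8 of 301 to 314 FPKM in pcCon and 393 to 429 FPKM in pcYY2, and 2 of them, KRT8 and KRT19, rose (1 or 2 without 1 sample). The epithelial markers VIL1 and LGALS4 were close to absent, with 0 to 2 and 0 to 10 reads. Of 10 markers of blood, vessel and stromal cells 1 was tested, COL1A1, and their summed level was 2.50 to 2.96 FPKM in pcCon and 2.92 to 3.93 FPKM in pcYY2, with DCN at 0 in every sample.

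The promoter windows of the 10 kinesins were read from RefSeq (GRCh38.p14), each from 250 bases before to 50 bases after the annotated start of the gene, and searched on both strands for the CHR (TTTGAA or TTCGAA), the CCAAT box (CCAAT) and a core shared by YY1 and YY2 sites (AANATGGC). The starts are those of RefSeq and can differ from the gene bounds in the deposited table. A CHR was found in 8 of the 10 windows and in 16.4% of the 35116 RefSeq windows, and a CCAAT box in 8 of 10 and in 34.6%. Both stood together in 7 of 10 windows and in 6.38% of all. The YY core was in 1 of 10, that of KIF15, and in 6.58% of all. A match is a description of the letters and no evidence that a factor sits there. The 8 windows with a CHR are shown by 30 bases around it, on the strand of the gene and 5′ to 3′. The match is in capitals (TTCAAA is TTTGAA read on the other strand). These 8 members share it, and their selection by name did not use it. Other late cell cycle genes were not searched as a group.

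KIF4A, chrX:70290058-70290087, plus strand: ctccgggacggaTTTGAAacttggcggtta
KIF11, chr10:92593090-92593119, plus strand: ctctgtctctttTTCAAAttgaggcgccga
KIF14, chr1:200620733-200620762, minus strand: gcggggcgcccaTTCAAAttgcggccttct
KIF15, chr3:44761747-44761776, plus strand: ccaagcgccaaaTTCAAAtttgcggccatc
KIF18A, chr11:28108149-28108178, minus strand: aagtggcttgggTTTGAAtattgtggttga
KIF18B, chr17:44947754-44947783, minus strand: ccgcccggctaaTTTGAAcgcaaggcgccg
KIF20B, chr10:89701602-89701631, plus strand: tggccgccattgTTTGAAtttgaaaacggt
KIF23, chr15:69414282-69414311, plus strand: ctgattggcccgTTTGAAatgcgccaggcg

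The CHR began between 55 bases before the start, in KIF23, and 31 bases after it, in KIF20B, whose window holds 2 copies side by side. In KIF4A, KIF11 and KIF14 a CCAAT box lay 19, 20 and 18 bases before the CHR, and in KIF18A and KIF18B 30 and 29 bases before it. In KIF23 only 4 bases separated them (the attgg near the left end of its line is the CCAAT box on the other strand), and in KIF20B 117 bases did. KIF20A had 2 CCAAT boxes and no CHR, KIF15 a CHR and no CCAAT box, and KIF2C none of the 3 motifs. Promoters with both elements occurred among the genes that rose and among those that did not pass the test. A relation of these motifs to the changes in expression was not tested. The pair of YY core matches of KIF15 is shown in the same way, the first on the strand of the gene and the second on the other strand.

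KIF15, chr3:44761700-44761729, plus strand: gtaggccgggcAACATGGCggcctccatgc
KIF15, chr3:44761760-44761789, plus strand: tcaaatttgcgGCCATCTTgagcgggcgga

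The motors that set up the bipolar spindle were KIF11 and KIF15. KIF11 (ENSG00000138160, chr10:92593286-92655395), the tetrameric motor also called Eg5 that slides antiparallel microtubules apart, had 35.0, 34.3 and 33.98 FPKM in pcCon samples 1 to 3 and 45.4, 39.7 and 42.2 FPKM in pcYY2 samples 1 to 3. Every pcYY2 sample lay above every pcCon sample, and KIF11 rose from 34.5 ± 0.542 to 42.5 ± 2.85 FPKM (SD, n = 3 each; log2 fold change 0.31, SE 0.0566, adjusted p = 0.0230). KIF15 (ENSG00000163808, chr3:44761717-44873376), a motor that can keep a spindle bipolar when KIF11 is weak, had 8.09, 7.92 and 7.54 FPKM in pcCon and 10.5, 9.23 and 9.55 FPKM in pcYY2. It was the lowest of the 10 in both groups, its groups did not overlap, and it rose by a log2 fold change of 0.33 (SE 0.0656, adjusted p = 0.0295). The log2 ratio of KIF11 to KIF15 FPKM within a sample was 2.13 ± 0.0330 in pcCon and 2.12 ± 0.0221 in pcYY2 (SD, n = 3 each), a difference of -0.016 with overlapping groups (exact two-sided permutation p = 0.5). With 3 samples against 3, the smallest p this test allows is 0.1.

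Of the motors that act on microtubule ends and on chromosome position, KIF18B and KIF2C rose and KIF18A did not pass the test. KIF18B (ENSG00000186185, chr17:44924709-44947711) works with KIF2C on the astral microtubules that reach from the poles to the cell cortex. Its values were 21.4, 22.2 and 20.5 FPKM in pcCon samples 1 to 3 and 28.9, 30.5 and 29.4 FPKM in pcYY2 samples 1 to 3. The pcYY2 samples lay close together and well above the pcCon samples, and KIF18B had the largest log2 fold change and the smallest p of the 10 members (0.48, SE 0.0523, 95% interval 0.36 to 0.61, adjusted p = 0.00573), at rank 78 by p among the 12015 genes tested. The largest log2 fold change passed to KIF14 with the GC correction described further on (0.49 against 0.41 for KIF18B) and without pcYY2 sample 2 (0.51 against 0.46), and to KIF2C without pcCon sample 3 (0.49 against 0.46). The smallest adjusted p in edgeR's test passed to KIF2C without pcCon sample 3 (0.0226 against 0.0257 for KIF18B). With the replicate number as a block and the GC correction, it passed to KIF14 (0.0263 against 0.0367 for KIF18B). KIF2C (ENSG00000142945, chr1:44739818-44767767), a depolymerase also called MCAK that corrects faulty attachments at kinetochores, had 29.3, 29.9 and 33.3 FPKM in pcCon and 41.3, 42.5 and 39.7 FPKM in pcYY2. It rose from 30.8 ± 2.17 to 41.2 ± 1.41 FPKM (log2 fold change 0.43, SE 0.0645, adjusted p = 0.0138), with pcCon sample 3 the highest of its group and still below each pcYY2 sample.

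KIF18A (ENSG00000121621, chr11:28020620-28108308), the motor that dampens chromosome movement at the metaphase plate, had 16.4, 15.2 and 15.1 FPKM in pcCon samples 1 to 3 and 19.1, 16.2 and 16.0 FPKM in pcYY2 samples 1 to 3. The groups overlapped, since pcYY2 samples 2 and 3 lay below pcCon sample 1, and the log2 fold change of 0.15 had a 95% interval of -0.04 to 0.34 (adjusted p = 0.262). Within a sample, the log2 ratio of KIF18A to its relative KIF18B was -0.39, -0.55 and -0.44 in pcCon and -0.60, -0.91 and -0.88 in pcYY2. The ratio was lower in all 3 pcYY2 samples, by 0.34 (from -0.46 ± 0.0839 to -0.80 ± 0.172), at the smallest p that the exact permutation test allows (two-sided p = 0.1, 0.2 after adjustment over the 4 ratios compared). After removal of the GC trend described further on, the difference was -0.18, still with an exact permutation p of 0.1.

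KIF4A (ENSG00000090889, chrX:70290090-70420832), a chromatin-bound motor that also stops microtubule growth in the midzone together with PRC1, had 26.2, 25.7 and 27.1 FPKM in pcCon samples 1 to 3 and 31.1, 31.2 and 29.5 FPKM in pcYY2 samples 1 to 3. All pcYY2 samples were higher, and its change was the smallest of the 7 members that rose (log2 fold change 0.23, SE 0.0504, adjusted p = 0.0364). KIF4B, a near copy of KIF4A, had 19 to 54 reads a sample beside 1879 to 4220 for KIF4A, so that how reads of the pair were divided is uncertain.

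Of the motors of cytokinesis, KIF14, KIF20A, KIF20B and KIF23, 2 rose and 2 did not pass the test. KIF23, 1 of those that did not pass, had the same log2 fold change as KIF11, which rose (0.31). Differences between the roles were not tested. KIF20A (ENSG00000112984, chr5:138178719-138187715), which carries the Aurora B complex to the midzone and is also called MKLP2, had 27.0, 26.9 and 26.6 FPKM in pcCon and 34.4, 36.04 and 32.3 FPKM in pcYY2. Its pcCon samples differed by less than those of any other member (SD 0.192), and it rose by a log2 fold change of 0.37 (SE 0.0545, adjusted p = 0.0137). KIF14 (ENSG00000118193, chr1:200551497-200620734), which brings citron kinase to the midbody, had 10.4, 9.71 and 10.04 FPKM in pcCon and 14.8, 12.1 and 13.5 FPKM in pcYY2, and rose by a log2 fold change of 0.44 (SE 0.0782, adjusted p = 0.0230). Both genes had every pcYY2 sample above every pcCon sample.

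KIF23 (ENSG00000137807, chr15:69414246-69448427), the MKLP1 subunit of the centralspindlin complex that bundles midzone microtubules, had 15.5, 14.1 and 14.5 FPKM in pcCon samples 1 to 3 and 20.05, 15.7 and 18.6 FPKM in pcYY2 samples 1 to 3. Its groups did not overlap, but pcYY2 sample 2 lay close to pcCon sample 1, and the log2 fold change of 0.31 had an SE of 0.0900 and an adjusted p of 0.0708. DESeq2 gave KIF23 an adjusted p of 0.0209, and edgeR without pcYY2 sample 2 one of 0.0323. KIF20B (ENSG00000138182, chr10:89701610-89774939), a motor of late cytokinesis also called MPP1, had 21.5, 20.6 and 21.9 FPKM in pcCon and 26.3, 20.6 and 21.8 FPKM in pcYY2. Only pcYY2 sample 1 stood above the pcCon samples, and the log2 fold change of 0.11 had a 95% interval of -0.10 to 0.33 (adjusted p = 0.448).

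Among these motors, the log2 ratio of KIF20A to KIF20B was 0.33, 0.38 and 0.28 in pcCon and 0.39, 0.81 and 0.57 in pcYY2, higher in each pcYY2 sample by 0.26 on average (exact permutation p = 0.1, adjusted 0.2). It was 0.15 after removal of the GC trend and 0.15 without pcYY2 sample 2. The ratio of KIF20A to KIF23 was 0.87 ± 0.0658 in pcCon and 0.93 ± 0.234 in pcYY2, with overlapping groups and a difference of 0.054 that turned to -0.081 without pcYY2 sample 2 (exact permutation p = 1 with all samples).

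**Figure D1:**
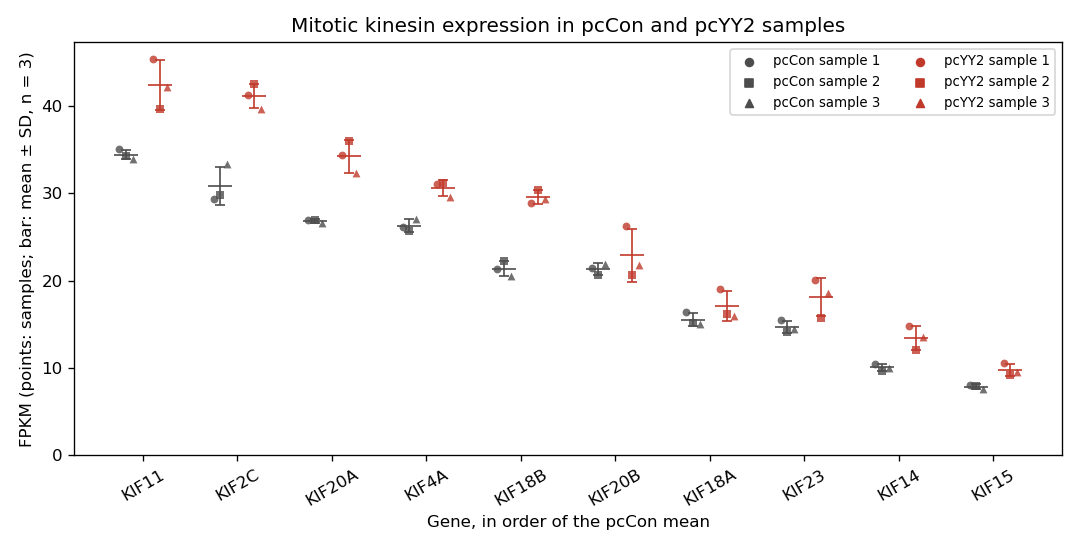
FPKM of each kinesin in the 3 pcCon (grey) and 3 pcYY2 (red) samples, with circles, squares and triangles for samples 1, 2 and 3 and bars for the mean ± SD. The pcYY2 samples all lie above the pcCon samples in 8 genes, beside 15.9% of the genes tested, and the groups overlap in KIF18A and KIF20B. The SD of the pcYY2 samples is highest in KIF20B, at 3.01 FPKM.

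In all, 7 of the 10 kinesins rose (adjusted p of 0.05 or less in edgeR's quasi-likelihood test over all genes tested), beside 4.52% of the genes tested, and none fell, beside 4.85%. At an unadjusted p under 0.05, 8 were higher, beside 14.4% of the genes tested, and 0 were lower. DESeq2 called 8 higher, beside 5.93%, and 0 lower. In 8 of the 10 every pcYY2 FPKM lay above every pcCon FPKM, beside 15.9% of the genes tested. The median log2 fold change of the 10 was 0.32, beside 0.0020 over all genes tested, of which 6049 were positive. The members share these libraries and are not replicates of each other.

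The number that rose depended on having all the samples. It was 1 without pcCon sample 1 and 1 without pcCon sample 2 (KIF18B both times), and 2 without pcCon sample 3 (KIF2C and KIF18B). It was 5 without pcYY2 sample 1, 7 without pcYY2 sample 2 and 3 without pcYY2 sample 3 (KIF2C, KIF18B and KIF20A). The 7 without pcYY2 sample 2 included KIF23 and not KIF4A, which passed in none of the fits that left out a sample. Over all genes tested, leaving out a sample took the count of genes that rose from 543 to between 138 and 412. The sizes moved less, since the median of the 10 log2 fold changes stayed between 0.27 and 0.36 and all 10 remained positive in each of these fits.

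**Figure D2:**
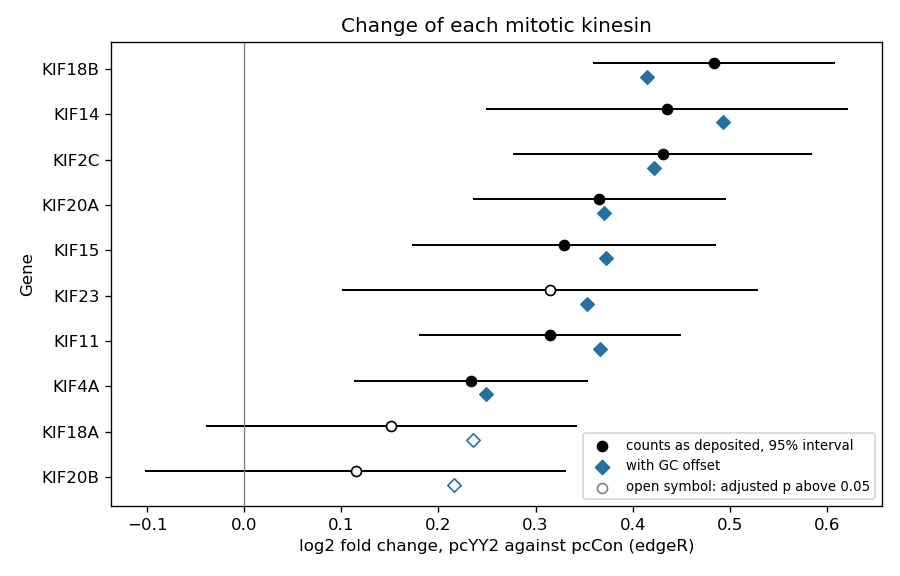
Log2 fold change of each kinesin, pcYY2 against pcCon, with its 95% interval from the counts as deposited (black circles) and with a correction for GC content (blue diamonds), where open symbols have an adjusted p above 0.05. Without the correction KIF18B lies highest at 0.48, with it KIF14 at 0.49, and it moves KIF20B from 0.11 to 0.22 and KIF18A from 0.15 to 0.24.

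The pcYY2 samples did not rank the members alike. Sample 1 was the highest of its group in KIF11, KIF14, KIF15, KIF18A, KIF20B and KIF23, and sample 2 in KIF2C, KIF4A, KIF18B and KIF20A. The first 6 genes had canonical transcripts of 34.3% to 41.6% GC, and the other four of 46.2% to 58.4%. The log2 CPM of sample 2 minus that of sample 1 ran from -0.35 in KIF20B and KIF23 to 0.075 in KIF18B. Across the 10 members this difference had a Pearson r of 0.868 with transcript GC, and across 11917 genes with a GC value an r of 0.244, both as descriptions over genes that share these 2 libraries and differ in depth. The mean difference between pcYY2 and pcCon had an r of 0.167 with GC across the same genes, while pcCon samples differed among themselves with an r of -0.057 to -0.0039.

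When each sample's trend on GC was entered as an offset, a correction chosen after seeing the data, 8 of the 10 kinesins rose beside 5.84% of the genes tested, and all 10 were higher at an unadjusted p under 0.05, beside 14.8%. KIF23 then passed (log2 fold change 0.35, SE 0.0779, adjusted p = 0.0353), while KIF18A had 0.24 (SE 0.0649, adjusted p = 0.0627) and KIF20B 0.22 (SE 0.0580, adjusted p = 0.0581). The SD of log2 CPM among the pcYY2 samples went from 0.184 to 0.0914 in KIF20B and from 0.0965 to 0.0373 in KIF11, but only from 0.178 to 0.143 in KIF23. KIF18B went from 0.48 to 0.41. The part of GC content in the differences between groups was not tested further.

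**Figure D3:**
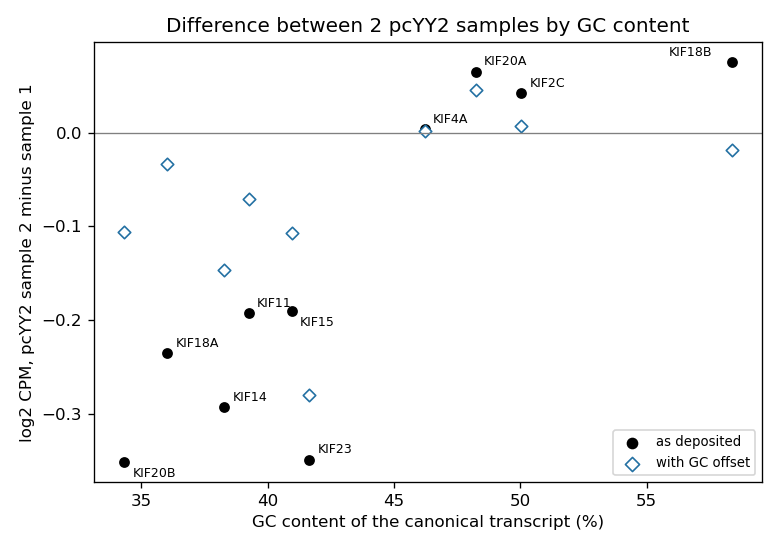
Log2 CPM of pcYY2 sample 2 minus sample 1 for each kinesin against the GC content of its canonical transcript, from the deposited counts (black circles) and with the GC offset (blue diamonds). The 6 genes below 42% GC lie under -0.18 before the correction and the other four at or just above 0, and with the offset all but KIF23 lie between -0.15 and 0.045.

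By FPKM, the level ran from KIF11, the highest in pcCon, through KIF2C, KIF20A, KIF4A, KIF18B, KIF20B, KIF18A, KIF23 and KIF14 to KIF15. In pcCon the neighbours KIF20A and KIF4A, KIF18B and KIF20B, and KIF18A and KIF23 had overlapping samples. In pcYY2, KIF18B came level with KIF4A while KIF20B lay below both, KIF11 overlapped with KIF2C, and KIF23 with KIF18A. The order rests on the gene length behind FPKM, which was 11220 bases for KIF23 and 10657 for KIF14, against 3660 and 7291 bases of their canonical transcripts. Per kilobase of canonical transcript, KIF2C led in pcCon with 51.7 ± 3.65 CPM, before KIF20A with 49.7 ± 0.354 and KIF23 with 45.0 ± 2.19, and KIF15 was still the lowest. Changes between the groups do not depend on this length.

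Some members share their stretch of genome with other genes, and whether the counting used the strand is not stated in the sources used here. BRD8, which lies across KIF20A on the other strand, rose as well (from 7.07 ± 0.329 to 9.52 ± 0.310 FPKM, log2 fold change 0.44, adjusted p = 0.00818), and reads where the 2 genes overlap cannot be assigned to KIF20A with certainty from these counts. Neither CDC23, also opposite to KIF20A (log2 fold change 0.10, adjusted p = 0.241), nor PDZD11, opposite to KIF4A (0.11, adjusted p = 0.412), nor TMEM42, on the strand of KIF15 (-0.23, adjusted p = 0.364), passed the test. An antisense transcript of KIF23 had 9 to 40 reads a sample, beside 2466 to 5221 for KIF23.

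Of 7 other kinesins with a role in mitosis, 5 were tested, 3 rose and 1 fell. KIF22, a chromosome arm motor, rose from 22.4 ± 0.391 to 30.2 ± 0.628 FPKM (log2 fold change 0.44, adjusted p = 0.00400), KIFC1, a minus-end motor that clusters poles, from 33.6 ± 0.844 to 46.0 ± 2.51 FPKM (0.47, adjusted p = 0.00767), and KIF24, a motor of the centriole, by 0.39 (adjusted p = 0.0424). CENPE, the kinetochore motor, had 8.98 ± 0.828 and 11.5 ± 2.31 FPKM and did not pass (0.37, adjusted p = 0.144). KIF2A, the closest relative of KIF2C and also a depolymerase but with uses outside mitosis too, had 10.1, 12.7 and 13.02 FPKM in pcCon samples 1 to 3 and 8.80, 8.39 and 9.09 FPKM in pcYY2 samples 1 to 3. It fell by 0.43 on the log2 scale (adjusted p = 0.0436), while KIF2C rose by the same amount. KIF2A was below 0 under all 16 alternatives, at -0.54 to -0.36, and passed the threshold under 5 of them, with adjusted p from 0.00355 to 0.128 (with the GC offset it did not pass). KIF22 and KIFC1 passed under all 16, KIF24 under 7 and CENPE, positive under all 16, under 2. With the GC offset 4 of the 5 rose, CENPE among them, and 0 fell. KIF2B had no read and KIF4B was under the filter.

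A list of 30 genes for kinesins of transport and cilia also held kinesin light chains and the accessory subunit KIFAP3, which are not motors. Of the 30, 19 were tested, 1 rose and none fell, with a median log2 fold change of 0.032. At an unadjusted p under 0.05 there were 8 of the 19 in either direction, beside 28.9% of all genes tested. The gene that rose was KIFC2 (12.3 ± 0.585 to 16.1 ± 1.22 FPKM, log2 fold change 0.40, adjusted p = 0.0245), and those with the next smallest p were KIF27 (0.43, adjusted p = 0.0765), KIF5C (-0.29, adjusted p = 0.0989), KIF1C (0.15, adjusted p = 0.113) and KIFAP3 (0.22, adjusted p = 0.127). The difference between this list and the mitotic motors was not tested as such. With the GC offset 3 of the 19 rose, without 1 sample 0 or 1, and KIFC2 passed under 9 of the 16 alternatives.

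Of 18 genes for partners and kinases of the mitotic kinesins, 8 rose and 1 fell, with a median of 0.32. Of the Aurora B complex that KIF20A carries, CDCA8 (log2 fold change 0.51, adjusted p = 0.00428) and the kinase AURKB rose, while INCENP (0.43, adjusted p = 0.0723) and BIRC5 (0.32, adjusted p = 0.232) did not pass. PLK1 (0.49, adjusted p = 0.00587) and AURKA (0.42, adjusted p = 0.00935), kinases of the mitotic spindle, rose as well. PRC1, the midzone partner of KIF4A, rose by 0.32 (adjusted p = 0.0108), and CIT, the citron kinase bound by KIF14, by 0.37 (adjusted p = 0.0149). TPX2 and RACGAP1 rose too, and NEK6, a kinase upstream of KIF11, fell by 0.50 on the log2 scale (adjusted p = 0.0209). In the same list NEK7 (-0.0022, adjusted p = 0.989), NEK9 (-0.10, adjusted p = 0.555) and ECT2 (0.028, adjusted p = 0.819) did not pass. TPX2, RACGAP1, ECT2, the NEK genes, AURKB, INCENP and BIRC5 were named after their values were seen. Without 1 sample between 3 and 10 of the 18 rose and 0 or 1 fell.

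Of the tracks on which the motors run, 11 of 12 tubulin genes were tested and 4 rose, with a median of 0.19. These were TUBB4B (0.32, adjusted p = 0.0115), TUBA4A (0.38, adjusted p = 0.0239), TUBA1C (0.26, adjusted p = 0.0240) and TUBB (0.19, adjusted p = 0.0273), and without 1 sample between 1 and 3 rose and 0 or 1 fell. Of 19 genes of dynein, the minus-end motor, and its adaptors none passed in edgeR's test or with DESeq2, 2 had an unadjusted p under 0.05 beside 28.9% of all genes tested, and with the GC offset 1 rose. The smallest p belonged to the light chain DYNLL1, at 0.22 on the log2 scale (adjusted p = 0.0686), NUMA1, which anchors dynein at the poles, was at 0.26 (adjusted p = 0.10), and the heavy chain DYNC1H1 was at 0.067 (adjusted p = 0.238). Of 16 tested genes listed as regulators of G2/M transcription, none passed in edgeR's test or with DESeq2, and their median was -0.070. Of these 16, 4 had an unadjusted p under 0.05, no larger a share than the 28.9% of all genes tested. With the GC offset 2 were higher and 1 lower at the threshold, and without 1 sample 0 or 1 in each direction. The smallest p belonged to E2F1 (log2 fold change -0.23, adjusted p = 0.0703), followed by MYBL2 (0.21, adjusted p = 0.137). FOXM1, named after its values were seen, had 14.7, 14.7 and 15.2 FPKM in pcCon samples 1 to 3 and 18.5, 18.9 and 8.36 FPKM in pcYY2 samples 1 to 3. Its pcYY2 sample 3 lay below and the other two above all pcCon samples. The log2 fold change was 0.051 (adjusted p = 0.924) with all samples and 0.35 (adjusted p = 0.0347) without pcYY2 sample 3, and it was -0.10 and -0.14 without pcYY2 samples 1 and 2.

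Of 21 G2/M markers 16 rose and 5 did not pass, among them GTSE1 (0.54, adjusted p = 0.00274), CCNA2 (0.50, adjusted p = 0.00553) and BUB1 (0.35, adjusted p = 0.00663). Their median was 0.32 with a range of -0.15 to 0.54, and their summed level was 645 to 657 FPKM in pcCon and 792 to 812 FPKM in pcYY2. Of 20 S phase markers 4 rose, 1 fell and 15 did not pass, with a median of 0.11 and summed levels of 825 to 855 and 890 to 958 FPKM. RRM2 (0.39, adjusted p = 0.00834), RRM1 (0.28, adjusted p = 0.0116) and MCM7 (0.29, adjusted p = 0.0127) had the smallest p. The S phase marker that fell was CCNE2 (-0.45, adjusted p = 0.0414), named after its values were seen. CCNE2 passed under 7 of the 16 alternatives. Of the 20 S phase markers, 13 had a positive log2 fold change. Without 1 sample between 4 and 15 of the G2/M markers and between 2 and 5 of the S phase markers rose. In bulk RNA, a larger share of cells in G2 or mitosis and more kinesin RNA per cell cannot be told apart, and the part of cell cycle phase in the kinesin values was not tested.

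**Figure D4:**
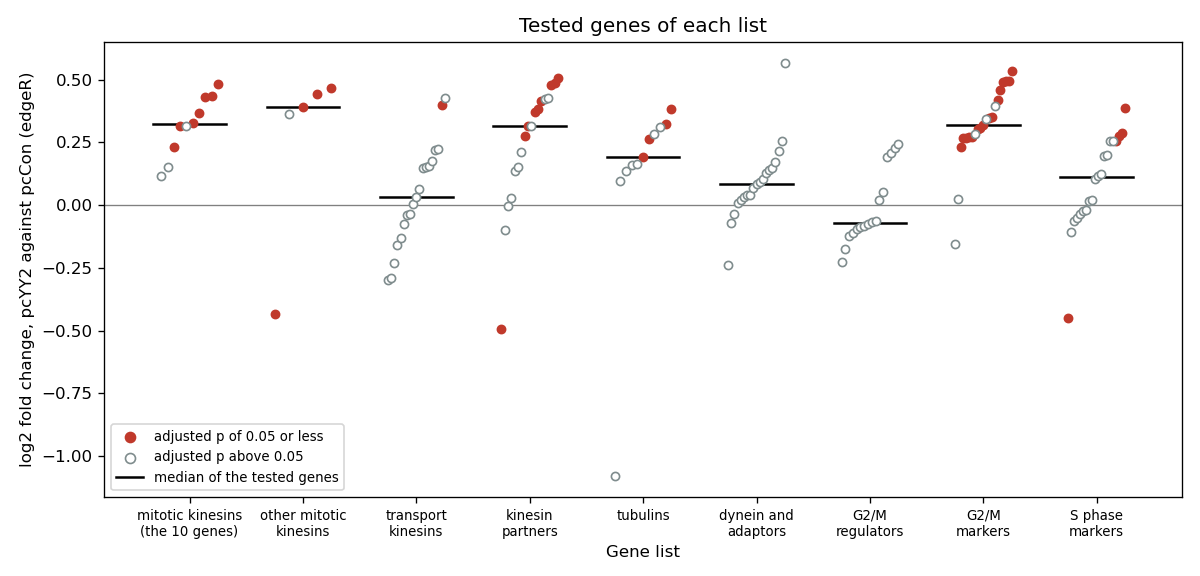
Log2 fold change, pcYY2 against pcCon, of each tested gene in the 10 mitotic kinesins and 8 other gene lists, with filled red points at an adjusted p of 0.05 or less and a bar at the median of each list. The bars of the mitotic kinesins, the kinesin partners and the G2/M markers stand at 0.32 and that of the transport kinesins at 0.032.

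The mean profile of the 10 kinesins over the 6 samples, in log2(CPM + 0.5), was followed most closely by KIF11 among the members (Pearson r = 0.990, a value that includes KIF11's own part in the mean) and least by KIF20B (r = 0.639) and KIF18A (r = 0.793). Outside the kinesins, the tested genes most like it over the 6 samples were BORCS7 (r = 0.994), RP11-54H7.4 (r = 0.994), EIF2AK3 (r = 0.993), FAM120A (r = 0.992) and TMEM138 (r = 0.991). These are descriptions over 6 samples that fall into 2 groups, out of 12015 genes searched. An r does not measure the size of a change, and FAM120A did not pass edgeR's test (log2 fold change 0.10, adjusted p = 0.121). BORCS7, a subunit of a complex that positions lysosomes, had 5.32, 4.90 and 5.15 FPKM in pcCon and 7.65, 6.60 and 7.02 FPKM in pcYY2, with the same order of the pcYY2 samples as the summed CPM of the kinesins.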

How the data were processed

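RNA-Seq of HCT116 cells transfected with pcCon or pcYY2 was analysed, with 3 samples each. According to the methods, the authors mapped reads to GRCh38 with Tophat and obtained FPKM with Cufflinks, and the submitters' processing notes also list Bowtie2 and HTSeq. The counts deposited by the authors are whole reads per gene, without normalization. The strand setting is not given in the sources used here. The FPKM deposited by the authors are those counts per kilobase of 1 set gene length and relative to the library total. Of 50868 genes, 23340 had no count.

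The groups were compared with edgeR 4.0.16 (R 4.3.3) by the quasi-likelihood test on the counts with TMM normalization, over genes averaging 1 FPKM or more, with Benjamini-Hochberg adjusted p of 0.05 or less as the threshold. The SE was obtained by dividing the log2 fold change by √F. Exact permutation tests on log2 FPKM ratios without pseudocount were two-sided. GC content came from the canonical transcripts of GENCODE 44 and was fitted per sample by lowess (span 0.3). The fit was tested on counts simulated from its own estimates, with no GC trend between samples. That test does not cover the GC trend seen in these libraries.

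The 10 members and all gene lists were chosen with earlier results of these data known. Genes named are the members, YY2, at most 5 of each other list by smallest p (3 for markers), and the 5 genes most correlated with the members. Genes overlapping a member and list genes too low to be tested were named besides, and others outside this rule are said to have been named after their values were seen. Alternatives were lower or no filters, other scalings, a replicate block, DESeq2 1.42.0, limma 3.58.1, leaving out each sample, and, added after seeing the data, the GC offset. The position of the motor in the proteins was not analysed here.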

Additional observations from a re-analysis of the deposited data

How the results depend on the processing

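All 10 kinesins kept a positive log2 fold change under the 16 alternatives, and no kinesin was called lower under any of them. KIF18B passed the threshold under all 16 (log2 fold change 0.41 to 0.51, adjusted p 4.89e-09 to 0.0452), KIF2C and KIF20A under 12 each, KIF11 and KIF14 under 11 each, KIF15 under 10, KIF4A under 8 and KIF23 under 4. KIF18A and KIF20B passed under none, with KIF20B between 0.0089 and 0.22. The median of the members ran from 0.27 to 0.37 and that of all genes from -0.019 to 0.0025.

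With the replicate number as a block, the replicate block fit called 51 genes higher and 50 lower, against 543 and 583 without it, and 1 kinesin (KIF18B). The replicate block with GC offset, added after seeing the data, called 202 and 195 genes and 6 kinesins. The labels do not say whether same-numbered samples belong together. Same-numbered samples deviated from their group means with r of -0.025, -0.017 and 0.00047, and no sample correlated best with its own number. Deviations within groups of 3 depend on each other, so these values cannot decide whether same-numbered samples were prepared together. Without 1 sample, 138 to 412 genes were higher, 147 to 393 lower, and 1 to 7 kinesins higher, in fits with fewer samples.

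The difference between groups in the log2 ratio of KIF20A to KIF23 ranged from -0.081 to 0.13 when 1 sample was left out. That of KIF11 to KIF15 ranged from -0.028 to 0.0035 in the same way, and was 0.0091 with a pseudocount of 1 FPKM. Leaving out a sample leaves 3 against 2, where the exact permutation test cannot go below 0.2. The difference in depth (pcYY2 sample 2 is the deepest) and the 3 samples a group limit how small a change could pass, and KIF15, with 795 to 1900 reads, was the least covered.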
